A study of Mus musculus with 30 samples.

Results

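Hepatic mRNAs of 9 enzymes of bile acid synthesis (*Cyp7a1*, *Cyp8b1*, *Cyp27a1*, *Cyp7b1*, *Hsd3b7*, *Akr1d1*, *Slc27a5*, *Baat* and *Amacr*) were followed in livers with and without CEBPA, the CCAAT/enhancer binding protein α. The rows were taken by gene symbol from the count table, in which each of the 9 symbols has a single row among 55450 genes. The 30 livers came from male mice in 3 experiments, each with 5 *Cebpa* fl/fl (Cre-) and 5 knockout (Cre+) mice, and all mice carried the floxed *Cebpa* alleles and were fed HFCFD, a diet rich in fat, cholesterol and fructose. In HFCFD2W the diet lasted 2 weeks and the knockout was *Cebpa* ΔHep, with Cre under the albumin promoter and no induction step. In HFCFD8W+T10D the labels give 8 weeks of diet and 10 days of tamoxifen, and in HFCFD12W+T10W tamoxifen covered the last 10 weeks of 22 weeks of diet. Both of these used *Cebpa* ΔHep,ERT2 mice, in which albumin-driven Cre becomes active only after tamoxifen, and their Cre- mice carry the same treatment label. The lines had been backcrossed to C57BL/6N for 9 generations, and the ages of the mice are not given in the sources used here. Between HFCFD2W and either tamoxifen experiment, Cre line, diet time, tamoxifen and experiment change together. Between HFCFD8W+T10D and HFCFD12W+T10W the Cre line is shared, and diet time, tamoxifen time and experiment change together. The shares of the factors that change together cannot be told apart in a difference between experiments.

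Bile acids are made from cholesterol in hepatocytes, and their synthesis is the main route by which the body disposes of cholesterol. The classic pathway starts with CYP7A1 and the alternative pathway with CYP27A1 followed by CYP7B1. CYP8B1 adds the hydroxyl group that makes cholic acid, so the balance of CYP8B1 with the other enzymes sets how much cholic acid and how much muricholic acid a mouse makes. HSD3B7 and AKR1D1 then change the steroid ring, the side chain is activated to a CoA ester and shortened by AMACR and the peroxisomal enzymes, and BAAT joins the product to taurine. SLC27A5 mainly activates bile acids that return to the liver, for a new round of conjugation. Bile acids feed back on the pathway through the nuclear receptor FXR (*Nr1h4*) and its target SHP (*Nr0b2*), with LRH-1 (*Nr5a2*) and HNF4α as activators of *Cyp7a1* and *Cyp8b1*.

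The genes lie apart in the genome and are given by GENCODE M21 on GRCm38. *Cyp7a1* (ENSMUSG00000028240.2) spans chr4:6265612-6275633 on the minus strand. *Cyp8b1* (ENSMUSG00000050445.4), a gene with 1 annotated transcript, spans chr9:121914356-121916305 on the minus strand. *Cyp27a1* (ENSMUSG00000026170.6) is at chr1:74713574-74737892 on the plus strand and *Cyp7b1* (ENSMUSG00000039519.6) at chr3:18071950-18243338 on the minus strand. *Hsd3b7* (ENSMUSG00000042289.11) is at chr7:127800604-127803802 on the plus strand and *Akr1d1* (ENSMUSG00000038641.12) at chr6:37530173-37568815 on the plus strand. *Slc27a5* (ENSMUSG00000030382.15) is at chr7:12988346-12998192 and *Baat* (ENSMUSG00000039653.9) at chr4:49489422-49506557, both on the minus strand, and *Amacr* (ENSMUSG00000022244.7) is at chr15:10981756-10996626 on the plus strand. All 9 are annotated as protein-coding. The whole of *Hsd3b7*, 3199 bases, also lies inside *Gm49388*, a protein-coding gene model on the same strand, so RSEM could divide reads between them. *Gm49388* received 0 to 34.24 counts per liver beside 1155 to 4956 for *Hsd3b7*. The pseudogene *Gm7463* within *Akr1d1* held at most 3 counts and the small nuclear RNA gene within *Cyp7b1* held 0.

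Promoter windows, 250 bases before to 50 bases after the start, were found for 4 of the 9 genes in the RefSeq table of GRCm38.p6, and the 3 of them that hold a searched motif are shown so that the matches can be read. The motifs were TTNNGNAA and the stricter TTGCNNAA for C/EBP, CAAGGNCA for LRH-1 and CAAAGNCCA for HNF4, each on both strands, and capitals mark the matches. The window of *Cyp8b1* (chr9:121916256-121916555, minus strand) holds an HNF4 match that begins 67 bases before the start and an LRH-1 match that begins 60 bases before it, and the 2 share bases. The window of *Cyp27a1* (chr1:74713285-74713584, plus strand) holds a C/EBP match that begins 60 bases before the start. The window of *Akr1d1* (chr6:37529923-37530222, plus strand) holds C/EBP matches that begin 154, 71 and 8 bases before the start, and the last of them also fits the stricter motif. The window of *Hsd3b7* holds none of the 4. With windows for 4 of the 9 genes, no relation between motifs and the genotype effects was tested.
Cyp8b1: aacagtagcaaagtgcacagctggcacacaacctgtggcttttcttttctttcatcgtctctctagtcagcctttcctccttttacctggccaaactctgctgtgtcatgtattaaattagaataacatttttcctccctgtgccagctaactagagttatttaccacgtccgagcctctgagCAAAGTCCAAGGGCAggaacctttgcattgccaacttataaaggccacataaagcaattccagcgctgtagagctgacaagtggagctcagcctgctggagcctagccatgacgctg
Cyp27a1: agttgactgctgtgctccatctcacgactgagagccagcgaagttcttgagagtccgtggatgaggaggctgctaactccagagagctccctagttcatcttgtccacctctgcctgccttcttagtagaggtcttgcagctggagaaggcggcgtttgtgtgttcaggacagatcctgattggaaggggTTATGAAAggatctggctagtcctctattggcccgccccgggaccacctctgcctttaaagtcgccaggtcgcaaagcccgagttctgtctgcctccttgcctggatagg
Akr1d1: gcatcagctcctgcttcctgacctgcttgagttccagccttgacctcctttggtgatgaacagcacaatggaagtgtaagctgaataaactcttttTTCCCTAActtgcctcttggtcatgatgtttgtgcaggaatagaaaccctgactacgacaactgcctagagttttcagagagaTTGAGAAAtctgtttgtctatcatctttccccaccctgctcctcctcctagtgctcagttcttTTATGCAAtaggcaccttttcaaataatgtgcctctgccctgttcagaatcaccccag
Among 32817 RefSeq promoter windows of this length, 40.7% hold TTNNGNAA, 10.8% TTGCNNAA, 6.71% CAAGGNCA and 1.98% CAAAGNCCA, so a C/EBP match of this kind is common. A match describes the letters of the window and is not a measured binding site.

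Libraries held 7996123 to 10257347 expected counts, and the lowest count of any of the 9 genes in any liver was 130, for *Cyp7a1*. Levels are given as CPM, the usual count scaled to library size, with library sizes adjusted over all 30 livers by the trimmed mean method of edgeR (TMM). *Cebpa* itself fell from 186, 192, 171, 147 and 184 CPM in the *Cebpa* fl/fl mice of HFCFD2W to 3.45, 4.298, 5.58, 5.32 and 4.94 CPM in *Cebpa* ΔHep mice. In HFCFD8W+T10D it ran from 123 to 157 CPM in *Cebpa* fl/fl and from 11.01 to 24.95 CPM in knockout mice, and in HFCFD12W+T10W from 81.97 to 136 and from 18.7 to 23.7 CPM. The residual *Cebpa* mRNA was thus 2.68%, 11.9% and 18.6% of the *Cebpa* fl/fl mean in the 3 experiments. TMM factors of the knockout livers were 1.287 to 1.356 in HFCFD12W+T10W against 0.954 to 1.025 in *Cebpa* fl/fl, and 0.8965 to 1.28 in HFCFD8W+T10D against 0.856 to 1.016. In HFCFD8W+T10D, knockout mouse 4 (factor 0.8965) and knockout mouse 2 (factor 1.28) lay at opposite ends for several of the enzymes, and results that rest on them are given with and without them. All 14 hepatocyte marker genes were detected in every group, *Alb* at a mean of 35116 CPM or more.

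Levels are comparable between genes only per length, for which TPM, the length-corrected abundance from RSEM, was used. *Slc27a5* had the highest mean TPM of the 9 in all 6 groups, from 268 ± 39.6 (SD, n = 5) in knockout mice of HFCFD12W+T10W to 614 ± 60.2 in those of HFCFD2W. *Cyp7b1*, *Cyp27a1* and *Hsd3b7* took the next places in *Cebpa* fl/fl mice of HFCFD2W and HFCFD12W+T10W, and their order changed between groups. *Cyp7a1* had the lowest mean TPM in *Cebpa* fl/fl mice of HFCFD8W+T10D (32.5 ± 5.61) and HFCFD12W+T10W (50.9 ± 25.02), and *Akr1d1* in those of HFCFD2W (62.4 ± 8.53). Among knockout mice the lowest was *Akr1d1* in HFCFD2W (24.9 ± 8.06), *Cyp7a1* in HFCFD8W+T10D (9.59 ± 6.78) and *Cyp8b1* in HFCFD12W+T10W (32.5 ± 16.2). In that last group *Cyp8b1* and its neighbour *Cyp7a1* (37.01 ± 11.2) were within their spread of each other, as were *Cyp7b1* (124 ± 47.8) and *Baat* (121 ± 9.97). *Cyp7b1* had the largest SD of TPM of the 9 in each group but the knockout mice of HFCFD8W+T10D, where it was that of *Slc27a5* (124).

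Genotypes were compared within each experiment with edgeR's quasi-likelihood test, and a gene was counted as changed at a Benjamini-Hochberg adjusted p under 0.05 over all genes tested. All 9 enzymes passed the low-count filter in every experiment. In HFCFD2W, 3 of the 9 were lower in knockout mice (*Cyp7a1*, *Hsd3b7* and *Akr1d1*) and 0 were higher, where 8.09% of all 11068 genes tested were lower and 8.6% higher. In HFCFD8W+T10D, 4 were lower (*Cyp7a1*, *Cyp7b1*, *Hsd3b7* and *Baat*) and 0 higher, against 6.85% and 10.3% of 11990 genes. In HFCFD12W+T10W, 6 were lower (*Cyp8b1*, *Cyp27a1*, *Cyp7b1*, *Akr1d1*, *Slc27a5* and *Baat*) and 0 higher, against 23.8% and 27.4% of 12463 genes. With a fold change over 2 as well, 2, 2 and 4 enzymes were lower, against 1.38%, 2.01% and 3.47% of the genes tested. The median log2 fold change of the 9 was -0.035, -0.45 and -0.91 in the 3 experiments, where the medians of all genes tested were 0.0073, 0.011 and 0.013. By these fits no enzyme was lower in all 3 experiments. *Cyp7a1* and *Hsd3b7* were in the joint fit of all 30 livers (adjusted p = 0.0432 and 0.0212 in HFCFD12W+T10W), as was *Hsd3b7* with DESeq2 (0.0452 there). So was *Cyp7a1* with the replicate block (0.00905 there), but nothing in the labels says that the replicate numbers pair mice. Leaving out each liver in turn gave 3 to 4, 4 to 6 and 6 to 8 enzymes past the test, and the count of 6 in HFCFD8W+T10D came without knockout mouse 4.

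**Figure D1:**
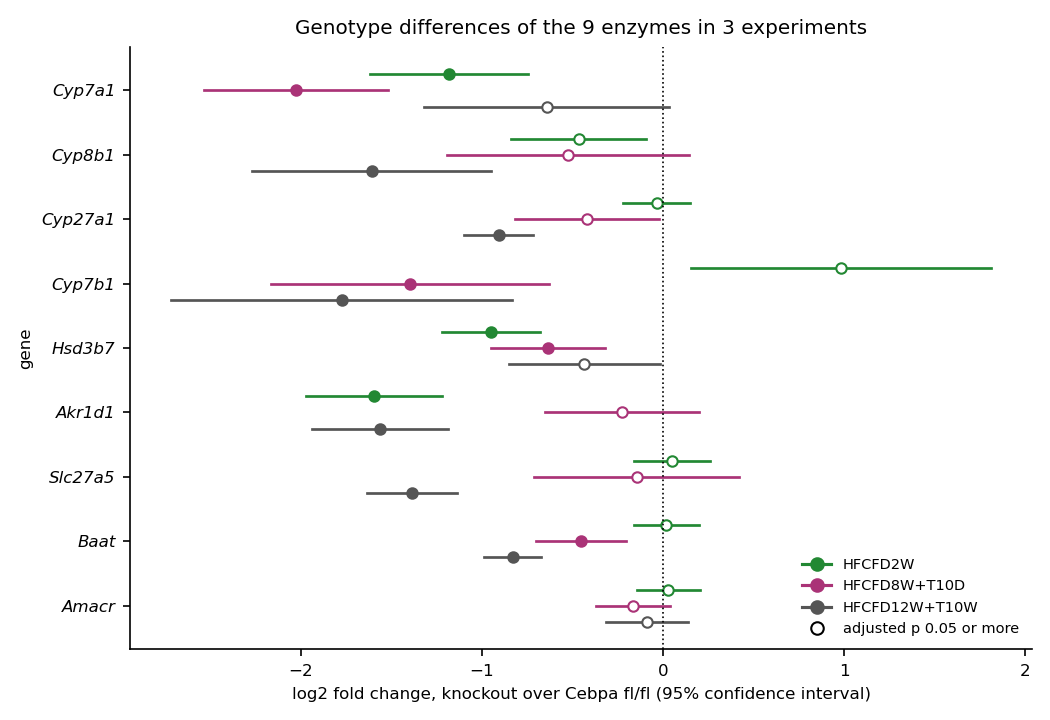
Log2 fold change of each enzyme (knockout over *Cebpa* fl/fl, 5 mice per group) with its 95% confidence interval, in the 3 experiments. Filled points passed the test at an adjusted p under 0.05; all 13 of them lie below 0, and *Amacr* has none.

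*Cyp7a1*, the rate-limiting enzyme of the classic pathway, fell in HFCFD2W and in HFCFD8W+T10D. In HFCFD2W the *Cebpa* fl/fl mice had 287, 319, 265, 482 and 485 CPM and the *Cebpa* ΔHep mice 173, 156, 109, 161 and 214 CPM. The groups did not overlap, and the mean fell to 44.2% of the *Cebpa* fl/fl mean (log2 fold change -1.18, SE 0.20, adjusted p = 0.00172). In HFCFD8W+T10D the values were 101, 136, 95.04, 83.8 and 87.997 CPM in *Cebpa* fl/fl and 39.5, 27, 14.1, 19.7 and 20.5 CPM in knockout mice. Every knockout value lay below every *Cebpa* fl/fl value, with a log2 fold change of -2.03 (SE 0.24, adjusted p = 0.000142), a 4.08-fold lower level. In HFCFD12W+T10W the groups overlapped, with 226, 197, 125, 63.2 and 99.9 CPM in *Cebpa* fl/fl and 95.7, 114, 96.6, 47.2 and 87.01 CPM in knockout mice. The log2 fold change there was -0.64 (SE 0.31) with an adjusted p of 0.103. The *Cebpa* fl/fl mice of this experiment differed 3.58-fold among themselves, and mouse 4 was the lowest of them. Without that mouse the log2 fold change was -0.84 with an adjusted p of 0.0181, where leaving out each of the 10 livers gave 0.0181 to 0.245. With the replicate number as a block, which the labels do not say pairs mice, the adjusted p was 0.00905, and in the joint fit it was 0.0432. Over the planned and added alternatives other than leaving out each liver, the log2 fold change ran from -0.69 to -0.28 and the adjusted p from 0.00905 to 0.462.

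*Cyp8b1*, the sterol 12α-hydroxylase that directs synthesis to cholic acid, fell in HFCFD12W+T10W. The *Cebpa* fl/fl mice had 136, 152, 115, 78.2 and 78.2 CPM and the *Cebpa* ΔHep,ERT2 mice 65.5, 31.6, 18.1, 36.3 and 26.1 CPM, and the groups did not overlap. The log2 fold change was -1.61 (SE 0.30, adjusted p = 0.000721), a 3.05-fold lower level. In HFCFD2W the values were 342, 279, 193, 321 and 292 CPM and 201, 149.5, 176, 243 and 265 CPM, which overlap through *Cebpa* fl/fl mouse 3, the lowest of its group. The log2 fold change of -0.47 (SE 0.17) had an adjusted p of 0.0811. It was -0.58 with an adjusted p of 0.0249 without that mouse, in a range of 0.0249 to 0.169 over the livers left out. With all livers kept, it passed the test with DESeq2 (-0.47, adjusted p = 0.0443). It also passed with the replicate block (-0.50, adjusted p = 0.0458), which dropped *Cebpa* fl/fl mouse 1 and knockout mouse 6, as neither has a same-numbered partner. Its adjusted p ran from 0.0443 to 0.335 over the alternatives other than leaving out each liver. The *Cebpa* fl/fl mice of HFCFD8W+T10D had 274, 209, 214, 279 and 367 CPM and the knockout mice 143, 109.9, 93.2, 348 and 227 CPM. Knockout mouse 4 stood above 4 of the 5 *Cebpa* fl/fl mice, while knockout mice 1, 2 and 3 were below all of them. The log2 fold change was -0.53 (95% confidence interval -1.19 to 0.14, adjusted p = 0.277), and without knockout mouse 4 it was -0.88 with an adjusted p of 0.027, in a range of 0.027 to 0.492 over the livers left out.

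**Figure D2:**
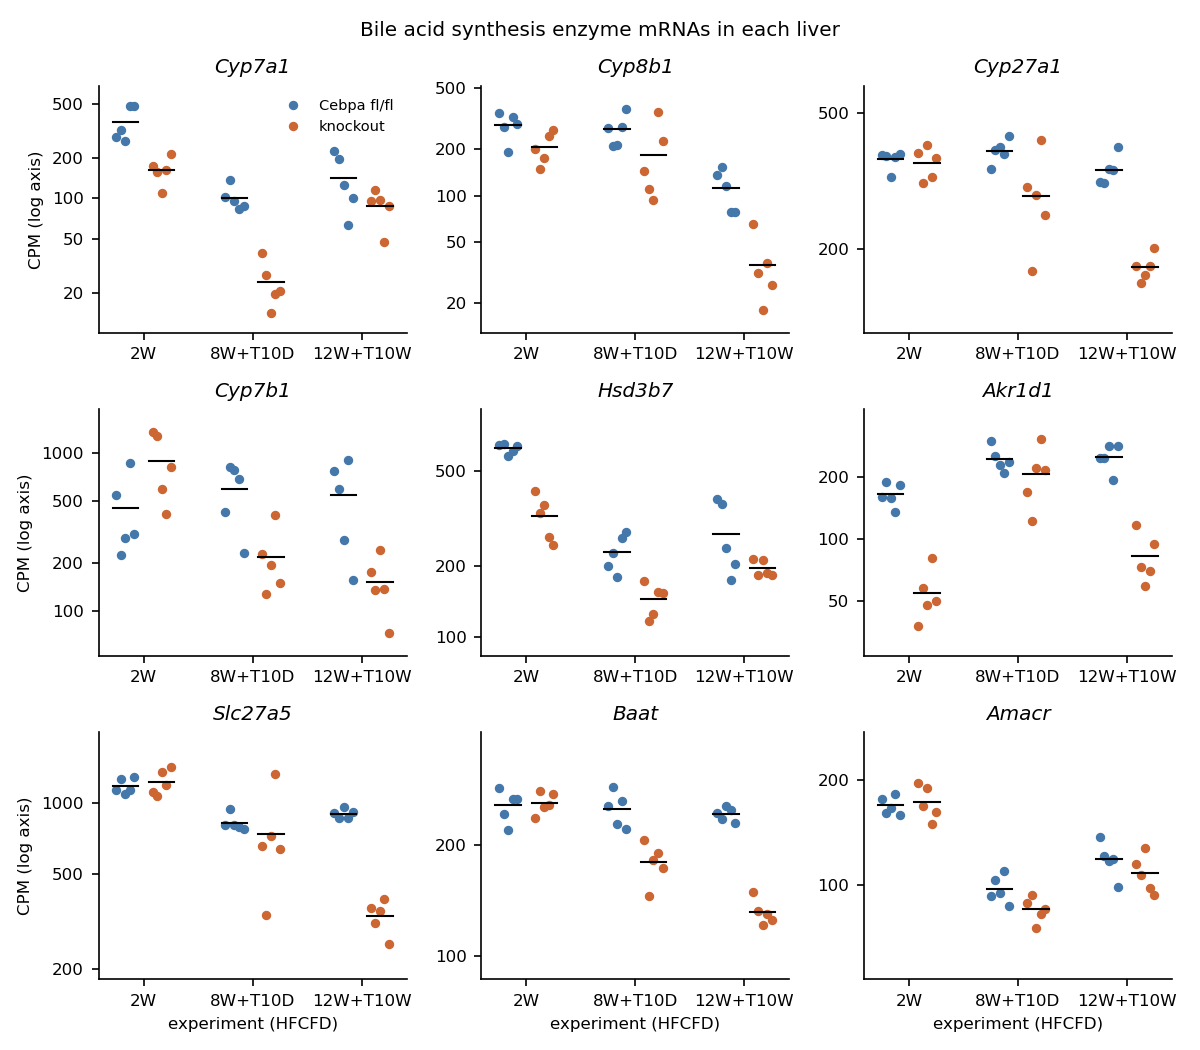
CPM of the 9 enzymes on log axes, 1 point per liver in order of mouse number, with the group mean as a bar, for *Cebpa* fl/fl and knockout mice of the 3 experiments. Knockout points of HFCFD12W+T10W lie below all their controls for *Cyp8b1*, *Cyp27a1*, *Akr1d1*, *Slc27a5* and *Baat*, and *Amacr* overlaps in each experiment. In HFCFD12W+T10W 23.8% of all 12463 genes tested were lower in knockout mice, and the share of all genes without overlap is not given here.

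*Cyp27a1*, the mitochondrial sterol hydroxylase that opens the alternative pathway, differed between genotypes in HFCFD12W+T10W. It was at 314, 311, 343, 341 and 399 CPM in *Cebpa* fl/fl and 178, 159, 168, 178 and 201 CPM in knockout mice. The fall to 51.7% of the *Cebpa* fl/fl mean was even across mice (log2 fold change -0.91, SE 0.087, adjusted p = 4.21e-06). With library totals alone it was -0.53 (adjusted p = 0.000287), where the median of all genes was 0.384. In HFCFD2W the means were 366 ± 23.1 and 359 ± 38.9 CPM (SD, n = 5 each), and the 95% confidence interval of the log2 fold change was -0.22 to 0.15. In HFCFD8W+T10D it was at 342, 390.3, 399.9, 380.3 and 430.2 CPM in *Cebpa* fl/fl and 303, 172, 287, 417 and 251 CPM in knockout mice, with a log2 fold change of -0.42 (SE 0.18, adjusted p = 0.137). Knockout mouse 4 had 417 CPM and knockout mouse 2 had 172 CPM, the highest and the lowest of its group. Without mouse 4 the log2 fold change was -0.60 with an adjusted p of 0.0189, in a range of 0.0189 to 0.237 over the livers left out. In the joint fit of all 30 livers it was -0.43 with an adjusted p of 0.0175. The range was 0.0175 to 0.179 over the alternatives other than leaving out each liver.

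*Cyp7b1*, the oxysterol 7α-hydroxylase of the alternative pathway, fell in both tamoxifen-induced knockouts and had a higher mean in knockout than in *Cebpa* fl/fl mice of HFCFD2W, where it did not pass the test. In HFCFD2W the *Cebpa* fl/fl mice had 546, 224, 289.6, 872 and 309 CPM and the *Cebpa* ΔHep mice 1358, 1279, 590.3, 411 and 814 CPM. The knockout mean was 1.97 times the *Cebpa* fl/fl level with overlapping groups (log2 fold change 0.98, SE 0.38, adjusted p = 0.0985). Without *Cebpa* fl/fl mouse 4, the highest of its group, the log2 fold change was 1.37 with an adjusted p of 0.0224, in a range of 0.0224 to 0.201 over the livers left out. In HFCFD8W+T10D the *Cebpa* fl/fl mice had 422, 816, 786, 686 and 231 CPM and the knockout mice 228, 128, 194, 402 and 149 CPM. The level fell 2.63-fold (log2 fold change -1.40, SE 0.36, adjusted p = 0.0177), although *Cebpa* fl/fl mouse 5 lay among the knockout mice. In HFCFD12W+T10W the values were 776, 589, 281, 901 and 156 CPM and 177, 135, 241, 138 and 72.4 CPM. The fall was 3.42-fold (log2 fold change -1.78, SE 0.43, adjusted p = 0.00424), and again *Cebpa* fl/fl mouse 5 lay within the knockout range. In these experiments the fall kept its call without any 1 of the livers, with an adjusted p of 0.00411 to 0.047 in HFCFD8W+T10D and 0.000483 to 0.0123 in HFCFD12W+T10W.

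*Hsd3b7* encodes the dehydrogenase that both pathways use after the initial hydroxylation. In HFCFD2W it fell from 642, 649, 579, 606 and 634 CPM in *Cebpa* fl/fl to 414, 334, 360.5, 263 and 244 CPM in *Cebpa* ΔHep mice, without overlap (log2 fold change -0.95, SE 0.13, adjusted p = 0.000271). In HFCFD8W+T10D it fell from 199.9, 226, 179.8, 261 and 277 to 172, 117, 126, 155 and 154 CPM (log2 fold change -0.64, SE 0.14, adjusted p = 0.0108), and again no knockout mouse reached the lowest *Cebpa* fl/fl mouse. With library totals alone and no TMM factor the adjusted p of this fall was 0.0515, where all alternatives gave 0.000435 to 0.0515. In HFCFD12W+T10W the *Cebpa* fl/fl mice had 382, 362, 237, 173 and 204 CPM and the knockout mice 213, 182, 210.4, 187 and 182 CPM. The knockout mice lay within a narrow band inside the *Cebpa* fl/fl range, and the log2 fold change was -0.43 (SE 0.19, adjusted p = 0.0775). Without *Cebpa* fl/fl mouse 4 it was -0.57 (adjusted p = 0.0117) and without *Cebpa* fl/fl mouse 5 it was -0.53 (adjusted p = 0.0341), in a range of 0.0117 to 0.169 over the livers left out. With all livers kept, it passed the test with DESeq2 (-0.45, adjusted p = 0.0452) and in the joint fit of 30 livers (-0.48, adjusted p = 0.0212). Over the alternatives other than leaving out each liver, the log2 fold change ran from -0.48 to -0.071 and the adjusted p from 0.0212 to 0.766.

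*Akr1d1*, the steroid 5β-reductase, had the largest fall of the 9 in HFCFD2W. The *Cebpa* fl/fl mice had 159, 188, 157, 136 and 184 CPM and the *Cebpa* ΔHep mice 37.6, 57.6, 47.3, 80.7 and 49.7 CPM. The groups did not overlap, a 3.03-fold lower level in knockout mice (log2 fold change -1.60, SE 0.17, adjusted p = 7.23e-05). In HFCFD12W+T10W the fall was of like size, from 247, 248, 285, 194 and 283 to 117, 72.95, 58.8, 70.01 and 94.2 CPM (log2 fold change -1.56, SE 0.17, adjusted p = 1.15e-05). The values of HFCFD8W+T10D were 299, 254, 229, 209 and 238 CPM in *Cebpa* fl/fl and 169, 122, 222, 306 and 216 CPM in knockout mice. They overlapped, and the log2 fold change was -0.23 (95% confidence interval -0.65 to 0.20, adjusted p = 0.479). Without knockout mouse 4, the highest of its group, it was -0.41. Over the livers left out the log2 fold change ran from -0.41 to -0.091 and the adjusted p from 0.119 to 0.775.

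*Amacr*, the racemase that prepares the side chain for peroxisomal shortening, passed the test in none of the experiments with edgeR, and its unadjusted p was also above 0.05 in each. Its *Cebpa* fl/fl and knockout levels were 169 ± 10.03 and 173 ± 19.1 CPM (SD, n = 5 each) in HFCFD2W. In HFCFD8W+T10D they were 97.7 ± 8.97 and 85.4 ± 6.99 CPM. Those of HFCFD12W+T10W were 119 ± 13.8 and 108 ± 13.9 CPM. The 95% confidence intervals of its log2 fold change were -0.15 to 0.20, -0.37 to 0.039 and -0.32 to 0.14. With library totals alone its log2 fold change in HFCFD12W+T10W was 0.28 (adjusted p = 0.0237, in a range of 0.0237 to 0.973 over the alternatives), on a scale on which the median of all genes tested was itself 0.384.

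*Slc27a5*, the bile acid CoA ligase, fell in HFCFD12W+T10W. The *Cebpa* fl/fl mice had 911, 867, 959.5, 862 and 916 CPM and the knockout mice 362, 312, 350.05, 396 and 254 CPM. The groups lay far apart, and the mean fell to 37.1% of the *Cebpa* fl/fl mean (log2 fold change -1.39, SE 0.11, adjusted p = 1.32e-06). In HFCFD2W the ranges were 1088 to 1288 and 1072 to 1417 CPM, with a 95% confidence interval of the log2 fold change of -0.16 to 0.26. In HFCFD8W+T10D the *Cebpa* fl/fl mice had 809.96, 948, 805, 793 and 777 CPM and the knockout mice 658, 337, 728, 1320 and 641 CPM. Knockout mouse 4 exceeded all *Cebpa* fl/fl mice and the other 4 knockout mice lay below all of them. The log2 fold change was -0.15 (95% confidence interval -0.71 to 0.42, adjusted p = 0.753). It was -0.46 without knockout mouse 4, with an adjusted p of 0.118, and 0.033 without knockout mouse 2.

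*Baat*, which joins the CoA ester to taurine, fell in the 2 induced knockouts. In HFCFD8W+T10D it went from 254, 287, 227, 262 and 221 CPM in *Cebpa* fl/fl to 206, 146, 182, 189 and 174 CPM in knockout mice. No knockout value reached the lowest *Cebpa* fl/fl value (log2 fold change -0.45, SE 0.12, adjusted p = 0.0176). With library totals alone it was -0.27 with an adjusted p of 0.0703, where all alternatives gave 0.000314 to 0.0703. In HFCFD12W+T10W it went from 244, 235, 253, 247 and 229 to 149, 133, 122, 129.8 and 126 CPM (log2 fold change -0.83, SE 0.073, adjusted p = 2.21e-06). With library totals alone it was -0.46 (adjusted p = 7.44e-05), where the median of all genes was 0.384. In HFCFD2W it was at 255 ± 25.1 and 259 ± 17.3 CPM (SD, n = 5 each), with a 95% confidence interval of the log2 fold change of -0.16 to 0.20.

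Cell type markers were read in the same livers, beside 8.09%, 6.85% and 23.8% of all genes lower and 8.6%, 10.3% and 27.4% higher in knockout mice of the 3 experiments. In HFCFD12W+T10W, 10 of 14 hepatocyte markers were lower in knockout mice (median log2 fold change -0.68, range -1.575 to 0.24), all 6 cholangiocyte markers were higher and all 10 stellate cell and fibroblast markers were higher. The summed CPM of the hepatocyte markers was 120322 to 149814 in *Cebpa* fl/fl and 78192 to 84588 in knockout mice, that of the cholangiocyte markers 9.24 to 12.3 and 43.7 to 72.9, and that of the stellate cell and fibroblast markers 305 to 379 and 1284 to 1588. The corresponding counts of HFCFD8W+T10D were 3 lower of 14, 2 higher of 5 tested and 3 higher of 10, and the hepatocyte sum of knockout mice ran from 90471 in mouse 2 to 154071 in mouse 4. These are the livers that are given left out above for *Cyp8b1*, *Cyp27a1* or *Slc27a5* in that experiment, and mouse 2 also had the highest macrophage (1817) and lymphocyte (63.7) marker sums of its group. In HFCFD2W, 2 of 14 hepatocyte markers were lower and 1 higher, and 0 of 2 cholangiocyte markers tested and 1 of 10 stellate cell and fibroblast markers were higher, counts near the shares of all genes. Macrophage markers were higher for 2, 6 and 5 of the 6, 8 and 8 tested in the 3 experiments, *Marco* was lower in HFCFD12W+T10W, endothelial markers were lower for 0, 1 and 2 of 6 with 0 higher, and lymphocyte markers were higher for 0, 1 and 2 of the 1, 2 and 2 tested. In whole liver, fewer hepatocytes and less of an mRNA per hepatocyte cannot be told apart, and the part of cell composition in the falls of the 9 enzymes was not tested.

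Differences between experiments were tested as interactions in a joint edgeR fit of all 30 livers. Between HFCFD8W+T10D and HFCFD2W, 3 of the 9 genotype effects differed, where 11.2% of 12964 genes did. The effect on *Cyp7b1* differed by -2.39 on the log2 scale (SE 0.63, adjusted p = 0.013), that on *Akr1d1* by 1.36 (adjusted p = 0.0019) and that on *Baat* by -0.48 (adjusted p = 0.0131). *Akr1d1* was thus lower relative to its controls in HFCFD2W, and *Cyp7b1* and *Baat* were lower relative to theirs in HFCFD8W+T10D. The effect on *Cyp7a1* differed by -0.85 (95% confidence interval -1.68 to -0.028) with an adjusted p of 0.177. For *Cyp27a1* the difference was -0.40 (adjusted p = 0.186), and without knockout mouse 4 of HFCFD8W+T10D it was -0.57 (adjusted p = 0.0204). Over the livers left out that difference ran from -0.57 to -0.25 and its adjusted p from 0.0204 to 0.327.

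Between HFCFD12W+T10W and HFCFD8W+T10D, which share the *Cebpa* ΔHep,ERT2 line, 4 of the 9 differed, where 10.5% of genes did. *Akr1d1* (difference -1.37, SE 0.28, adjusted p = 0.00254) and *Slc27a5* (difference -1.27, SE 0.27, adjusted p = 0.00359) were lower relative to their controls in HFCFD12W+T10W. *Cyp7a1* was lower relative to its controls in HFCFD8W+T10D (difference 1.35, SE 0.41, adjusted p = 0.0305). That difference was 1.21 to 1.28 with an adjusted p of 0.0555 to 0.0626 without *Cebpa* fl/fl mouse 2 or knockout mouse 3 or 4 of HFCFD8W+T10D or knockout mouse 2 of HFCFD12W+T10W, in a range of 0.0126 to 0.0626 over all livers left out. The fall of *Baat* was larger in HFCFD12W+T10W by -0.41 (adjusted p = 0.0388), a call lost without any of 16 of the 30 livers. These were *Cebpa* fl/fl mice 1, 3, 4 and 5 and knockout mice 1, 3 and 4 of HFCFD8W+T10D and all but knockout mouse 1 of HFCFD12W+T10W, and the adjusted p over all livers left out ran from 0.0109 to 0.121. It was also lost with no low-count filter (adjusted p = 0.0918) and with upper quartile normalization (adjusted p = 0.098). For *Cyp8b1* the difference was -1.12 (adjusted p = 0.0932), and it passed the test without knockout mouse 2 of HFCFD8W+T10D (-1.24, adjusted p = 0.0476) or knockout mouse 1 of HFCFD12W+T10W (-1.45, adjusted p = 0.0232), in a range of 0.0232 to 0.261. For *Cyp27a1* the difference of -0.52 (adjusted p = 0.0812) was -0.64 (adjusted p = 0.00635) without knockout mouse 2 of HFCFD8W+T10D, in a range of 0.00635 to 0.208.

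Between HFCFD12W+T10W and HFCFD2W, 5 of the 9 differed, where 30.7% of genes did, and each of the 5 was lower in HFCFD12W+T10W relative to its controls. The differences were -2.80 for *Cyp7b1* (adjusted p = 0.00136), -1.48 for *Slc27a5* (adjusted p = 0.000174), -1.18 for *Cyp8b1* (adjusted p = 0.0363), -0.91 for *Cyp27a1* (adjusted p = 0.000684) and -0.89 for *Baat* (adjusted p = 1.11e-05). That of *Cyp8b1* lost its call without any of 11 livers, which were *Cebpa* fl/fl mice 1, 2 and 3 and knockout mice 2, 3, 4 and 5 of HFCFD12W+T10W and *Cebpa* fl/fl mice 2 and 3 and knockout mice 5 and 6 of HFCFD2W. The adjusted p over the livers left out ran from 0.00665 to 0.082, and it was 0.0506 with DESeq2 and 0.0617 with upper quartile normalization. The effect on *Akr1d1* differed by -0.0058 (95% confidence interval -0.59 to 0.58, adjusted p = 0.992). The effect on *Hsd3b7* differed by 0.47 (adjusted p = 0.141), and by 0.62 (adjusted p = 0.0426) or 0.63 (adjusted p = 0.0479) without *Cebpa* fl/fl mouse 1 or 2 of HFCFD12W+T10W, in a range of 0.0426 to 0.253. The comparisons share groups, and *Cebpa* itself fell by more in HFCFD2W than in either induced knockout (differences 2.17 and 2.80, adjusted p = 9.31e-07 and 2.73e-08).

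The *Cebpa* fl/fl groups differed between experiments as well. From HFCFD2W to HFCFD8W+T10D, *Cyp7a1* differed by -1.89 on the log2 scale (adjusted p = 7.85e-06), *Hsd3b7* by -1.46 (adjusted p = 2.27e-07), *Amacr* by -0.81 (adjusted p = 1.94e-07) and *Slc27a5* by -0.54 (adjusted p = 0.0237), and *Akr1d1* by 0.56 (adjusted p = 0.0229). The first 4 were lower in HFCFD8W+T10D, and this is 5 of 9, where 43.6% of all genes differed. From HFCFD2W to HFCFD12W+T10W it was also 5 of 9, against 39.1% of all genes, with *Cyp7a1* (-1.39), *Cyp8b1* (-1.36), *Hsd3b7* (-1.21) and *Amacr* (-0.53) lower and *Akr1d1* (0.59) higher. Between HFCFD8W+T10D and HFCFD12W+T10W it was 2 of 9, against 11.4%, with a difference of -1.26 for *Cyp8b1* (adjusted p = 0.0066) and of 0.29 for *Amacr* (adjusted p = 0.0483). The last call was lost without any of 20 of the 30 livers, and the adjusted p over the livers left out ran from 0.0192 to 0.166. It was also lost with no low-count filter (adjusted p = 0.0912) and with upper quartile normalization (adjusted p = 0.0739). The differences of *Akr1d1* from HFCFD2W also lost their call without *Cebpa* fl/fl mouse 4 of HFCFD2W (adjusted p = 0.0614 and 0.0503) and, to HFCFD8W+T10D, without *Cebpa* fl/fl mouse 1 of that experiment (adjusted p = 0.0663). That of *Slc27a5* to HFCFD8W+T10D did so without *Cebpa* fl/fl mouse 4 (adjusted p = 0.0503) or 5 (adjusted p = 0.0568) of that experiment or mouse 5 of HFCFD2W (adjusted p = 0.0509), and that to HFCFD12W+T10W passed the test without knockout mouse 2 (adjusted p = 0.0286) or 4 (adjusted p = 0.0235) of HFCFD8W+T10D.

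Bile acid synthesis follows the time of day in mice, and the clock genes differed between the same control groups. Of 13 clock genes tested, 11 differed between the controls of HFCFD8W+T10D and HFCFD2W (43.6% of all genes), 13 between those of HFCFD12W+T10W and HFCFD8W+T10D (11.4%) and 7 between those of HFCFD12W+T10W and HFCFD2W (39.1%). *Arntl*, which encodes the clock activator BMAL1, was at a mean of 15.7 CPM in *Cebpa* fl/fl mice of HFCFD8W+T10D, 0.498 CPM in those of HFCFD2W and 1.70 CPM in those of HFCFD12W+T10W. *Dbp*, a clock output gene, was at 4.07, 98.1 and 42.2 CPM in the same order. The hour of tissue collection is not given in the sources used here, and the part of time of day in the differences between experiments was not tested. Within experiments 3, 2 and 8 clock genes were lower in knockout mice and 0 were higher, of 12, 12 and 13 tested, where 8.09%, 6.85% and 23.8% of all genes were lower.

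The mRNAs for the branch enzyme *Cyp8b1* and for the entry enzyme *Cyp7a1* were also set against each other within each liver, as a ratio of TPM that does not depend on library scaling. In HFCFD2W the ratio was 2.73, 2.01, 1.67, 1.43 and 1.11 in *Cebpa* fl/fl and 2.66, 1.703, 3.07, 3.41 and 2.503 in knockout mice (medians 1.67 and 2.66). In HFCFD8W+T10D it was 6.18, 3.13, 3.53, 5.55 and 8.94 and 5.05, 9.25, 15.1, 40.6 and 25.3 (medians 5.55 and 15.1), with the highest value in knockout mouse 4. In HFCFD12W+T10W it was 1.33, 1.29, 2.11, 1.96 and 1.51 and 1.503, 0.632, 0.367, 1.77 and 0.684 (medians 1.51 and 0.684). The median was thus higher in knockout mice of the first 2 experiments and lower in those of HFCFD12W+T10W, and the groups overlapped in all 3. The ratio of *Cyp7b1* to *Cyp7a1* did not overlap between genotypes in HFCFD2W, at 3.88, 1.44, 2.23, 3.44 and 1.04 in *Cebpa* fl/fl and 15.95, 12.95, 9.16, 5.13 and 6.83 in knockout mice. Its medians were 10.8 and 14.8 for HFCFD8W+T10D, and for HFCFD12W+T10W they were 4.59 and 3.61, with overlap in both. These ratios are descriptions, and no test was made of them.

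**Figure D3:**
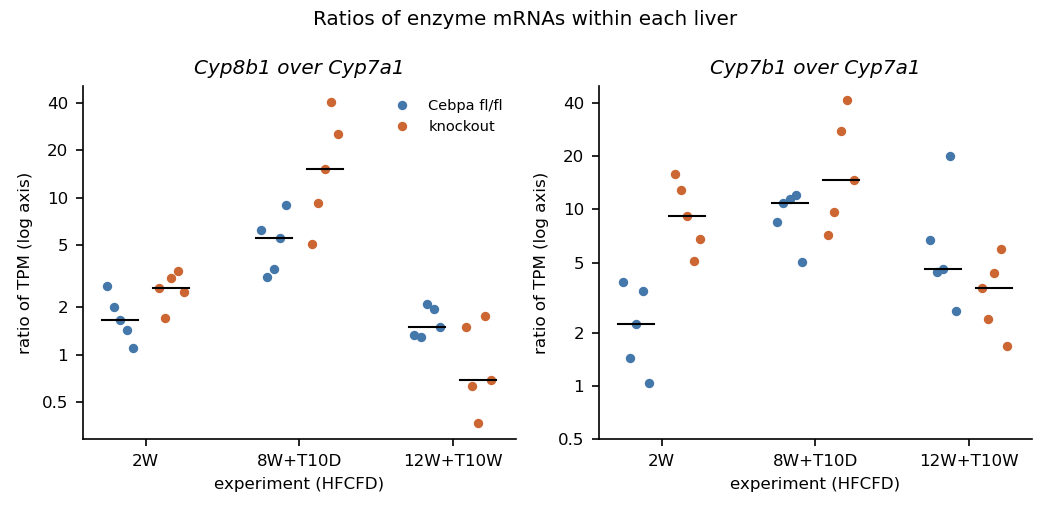
Ratio of TPM of *Cyp8b1* to *Cyp7a1* and of *Cyp7b1* to *Cyp7a1* in each liver on log axes, with the group median as a bar. Knockout livers of HFCFD8W+T10D reach a *Cyp8b1* to *Cyp7a1* ratio of 40.6, and *Cyp7b1* to *Cyp7a1* ratios of HFCFD2W are separated by genotype.

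Other genes of the pathway were read from lists, whose counts stand beside 8.09%, 6.85% and 23.8% of all genes lower and 8.6%, 10.3% and 27.4% higher in knockout mice of HFCFD2W, HFCFD8W+T10D and HFCFD12W+T10W. Of 11 further enzymes and carriers of bile acid synthesis, 9 had enough counts to be tested within experiments, and 1, 3 and 7 of them were lower in the 3 experiments, with 0 higher and median log2 fold changes of -0.050, -0.29 and -0.61. The 1 of 9 in HFCFD2W is near the share of all genes. *Cyp39a1*, an oxysterol hydroxylase, fell in HFCFD2W by 0.51 on the log2 scale (adjusted p = 0.0434) and in HFCFD8W+T10D by 0.62 (adjusted p = 0.0181), with a log2 fold change of -0.61 (adjusted p = 0.297) in HFCFD12W+T10W. *Slc27a2*, which activates side chains in peroxisomes, fell by 0.65 (adjusted p = 0.032) in HFCFD8W+T10D and by 1.10 (adjusted p = 6.18e-06) in HFCFD12W+T10W. *Scp2*, whose long form holds the thiolase of side-chain shortening, fell by 0.55 (adjusted p = 0.0402) and by 0.66 (adjusted p = 0.00018). *Cyp2c70*, the mouse enzyme that makes muricholic acid, had a log2 fold change of 0.53 (adjusted p = 0.265) in HFCFD2W and fell by 0.67 (adjusted p = 0.00283) in HFCFD12W+T10W. *Acox2*, the branched-chain oxidase, passed the test in no experiment (log2 fold changes of -0.19, 0.0042 and -0.22).

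Of 16 regulators of the pathway, 15 were tested, and 5, 8 and 13 were lower in knockout mice of the 3 experiments, with 0 higher, where 8.09%, 6.85% and 23.8% of all genes were lower. The intestinal hormone gene *Fgf15* had 0 counts in every liver. *Nr1h4*, which encodes the bile acid receptor FXR, fell in each experiment, by 0.64 (adjusted p = 0.00185), 0.44 (adjusted p = 0.0257) and 0.79 (adjusted p = 1.12e-05) on the log2 scale. *Prox1*, a corepressor of *Cyp7a1*, did too, by 1.00 (adjusted p = 0.0086), 0.35 (adjusted p = 0.0432) and 0.79 (adjusted p = 3.87e-06). *Hnf4a* had a log2 fold change of 0.14 (adjusted p = 0.238) in HFCFD2W and fell by 0.56 (adjusted p = 0.0104) and 0.96 (adjusted p = 2.21e-06) in the others. *Nr0b2*, the FXR target SHP, fell by 0.90 (adjusted p = 0.00128) in HFCFD12W+T10W and had log2 fold changes of -0.27 (adjusted p = 0.45) and -0.18 (adjusted p = 0.821) before. *Klb*, the coreceptor of FGF15, fell by 0.67 (adjusted p = 0.0028) in HFCFD2W and by 0.96 (adjusted p = 5.49e-05) in HFCFD12W+T10W, and its log2 fold change was positive in HFCFD8W+T10D, at 0.21 (adjusted p = 0.486). *Fgfr4*, its receptor, passed the test in no experiment.

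Of 10 bile acid carriers, 8 were tested, and 4, 1 and 4 were lower and 1, 1 and 1 higher in the 3 experiments. The counts of HFCFD8W+T10D are near the 6.85% of all genes lower and 10.3% higher there, and 1 of 8 higher in HFCFD12W+T10W is below the 27.4% of all genes. The higher gene was each time *Abcc4*, a basolateral efflux pump, which rose by 1.53 (adjusted p = 0.00725), 2.61 (adjusted p = 0.000156) and 1.76 (adjusted p = 0.000132) on the log2 scale. *Slco1b2*, an uptake carrier, fell by 0.70 (adjusted p = 0.000117), 1.45 (adjusted p = 7.44e-05) and 1.54 (adjusted p = 1.11e-07). *Slc10a1*, the sodium-dependent uptake carrier NTCP, fell by 0.85 (adjusted p = 3.32e-05) in HFCFD2W and by 2.61 (adjusted p = 9.93e-07) in HFCFD12W+T10W, with a log2 fold change of -0.64 (adjusted p = 0.0873) in HFCFD8W+T10D. *Abcb11*, the canalicular bile salt pump, fell by 0.36 (adjusted p = 0.0198) in HFCFD2W. Its log2 fold changes were 0.091 and -0.051 in the others, and the effect did not pass the test of a difference from HFCFD2W in either (adjusted p = 0.138 and 0.306).

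**Figure D4:**
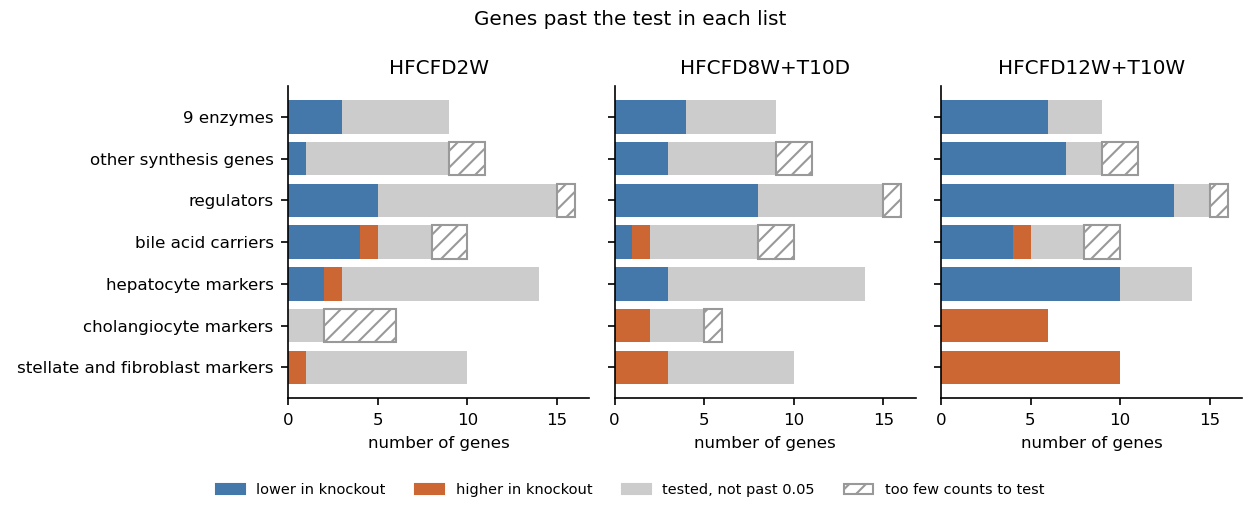
Number of genes of each list that were lower, higher or not past the test in knockout mice, or had too few counts to test, by experiment. The 9 enzymes count 3, 4 and 6 lower and 0 higher, beside 2, 3 and 10 of 14 hepatocyte markers lower.

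Mice of a group also differed among themselves. The ratio of the highest to the lowest liver of a group ran from 1.63 in *Cebpa* fl/fl mice of HFCFD8W+T10D to 3.58 in those of HFCFD12W+T10W for *Cyp7a1*. For *Cyp7b1* it was 3.13 to 5.79 over the 6 groups, and for *Baat* 1.11 to 1.41. To see which genes moved with an enzyme from mouse to mouse, log2 CPM was centred on each group's mean, and Pearson's r was taken over the 30 livers with each of 12102 genes of a mean CPM of at least 1. *Cyp7b1* was most like *C8b* (r = 0.904, Spearman's rho 0.921), *C6* (r = 0.885, rho 0.895) and *Mup7* (r = 0.856, rho 0.878). *C8b* and *C6* encode components of the complement membrane attack complex and *Mup7* a major urinary protein of a family of near-identical copies, so its count is uncertain. *Mup7* was also at 0 to 1.31 CPM in the 10 knockout livers of HFCFD8W+T10D and HFCFD12W+T10W, whose centred values rest on few or no counts, and nothing is read from its r. *Cyp8b1* was most like *Tex2* (r = 0.772, rho 0.772), *Zbed5* (r = 0.709, rho 0.686) and *Aox1* (r = 0.697, rho 0.749). *Cyp7a1* was most like *Cdc16* (r = 0.762, rho 0.731), *Wwp2* (r = 0.693, rho 0.582) and *Slc2a5* (r = 0.675, rho 0.624). Without the 2 livers farthest from the median of the enzyme, r was 0.871, 0.737 and 0.74 for *C8b*, *Tex2* and *Cdc16*. These are the highest of 12102 values each, all livers of an experiment share its handling, and both genes of a pair share the library's scaling.

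**Figure D5:**
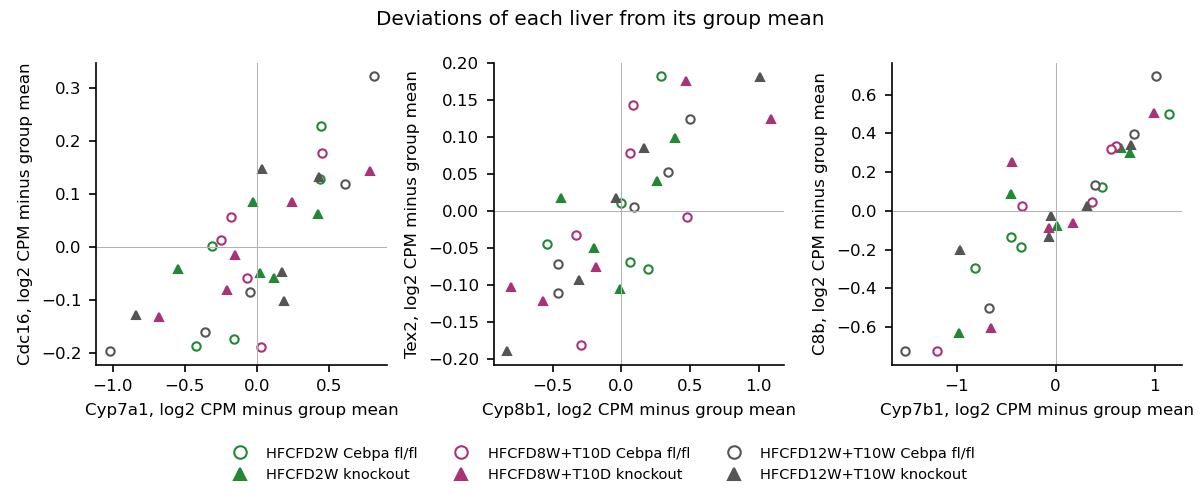
Deviation of each of the 30 livers from its group mean in log2 CPM, for *Cyp7a1* with *Cdc16*, *Cyp8b1* with *Tex2* and *Cyp7b1* with *C8b*. The points of *Cyp7b1* and *C8b* rise together over the 30 livers (r = 0.904), and those of the other pairs scatter more.

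Among the 9 enzymes themselves the closest pairs after centring were *Cyp27a1* with *Slc27a5* (r = 0.765, rho 0.387) and *Cyp7b1* with *Amacr* (r = 0.627, rho 0.557). For the former r was 0.118 without the 2 livers farthest from the median of *Cyp27a1*, so it rests on those livers. The latter was 0.52 without the 2 livers farthest from the median of *Cyp7b1*. *Akr1d1* and *Amacr* ran against each other (r = -0.54, rho -0.581, and -0.537 without 2 livers). *Cyp7a1* and *Cyp8b1* had an r of 0.22 (rho 0.177). These values describe 30 livers, and no p was computed for them.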

How the data were processed

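Liver mRNA was measured by stranded poly(A) RNA-seq (TruSeq) of RNeasy Plus extracts from 30 male mice. According to the submitters' processing notes, the authors trimmed reads with Trimmomatic 0.36, aligned them to mm10 with STAR 2.5.1, used Picard 1.84 and quantified genes with RSEM 1.2.22. The deposited raw table holds RSEM expected counts (11.3% of the values above 0 are not whole), and the 9 genes, their groups and the tests rest on it. The deposited per-library files also hold TPM, used for levels between genes, and a deposited table of TMM-normalized signal was used for 1 alternative. An FPKM table was not used.

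Expected counts were rounded and tested with edgeR 4.0.16 (filterByExpr, TMM, quasi-likelihood test, Benjamini-Hochberg over all genes tested) within each experiment, and in a joint fit of 6 groups for differences between experiments and between control groups. Intervals are 95% intervals from edgeR's standard errors and degrees of freedom. CPM values were scaled by TMM over all 30 livers, so their ratios can differ slightly from the fitted folds. The code was tested on simulated data. Alternatives were DESeq2 1.42.0, no low-count filter, upper quartile normalization, limma 3.58.1 on log2 of the authors' normalized values + 1, the replicate block, the joint fit, a fold change over 2 and leaving out each liver. Scaling by library totals alone was added after seeing the data. The labels number biological replicates, and nothing says that the numbers pair mice between groups. The replicate block kept only mice whose number occurs in both genotypes, which dropped *Cebpa* fl/fl mouse 1 and knockout mouse 6 of HFCFD2W.

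Members, lists and tests were chosen with earlier results of these data known. The named genes were the 9 enzymes, the list members with values in the text, and for 3 enzymes the 3 genes with the highest Pearson's r. The lowest count of an enzyme in any liver was 130, and the errors given are between mice.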

Additional observations from a re-analysis of the deposited data

Results flagged for a closer look

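In 2 of 54 groups of 5 livers tested, a single liver lay far from the others on the CPM scale, where chance gives about 1 in 20. For *Cyp27a1* in *Cebpa* fl/fl mice of HFCFD2W, mouse 3 was the lowest and its gap to the next liver was 0.849 of the group's range (critical value 0.71). For *Slc27a5* in *Cebpa* fl/fl mice of HFCFD8W+T10D, mouse 2 was the highest with a gap of 0.809. Neither liver changes a call of its gene in its own experiment.

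In 12 cases the genotype effect on an enzyme differed between experiments by the interaction test, and in 9 to 14 with each liver left out in turn. From HFCFD2W to HFCFD8W+T10D the log2 differences, where 11.2% of all genes differed, were -2.387 for *Cyp7b1*, 1.361 for *Akr1d1* and -0.4837 for *Baat*. From HFCFD8W+T10D to HFCFD12W+T10W, with 10.5% of all genes, they were 1.354 for *Cyp7a1*, -1.367 for *Akr1d1*, -1.272 for *Slc27a5* and -0.4057 for *Baat*. From HFCFD2W to HFCFD12W+T10W, with 30.7% of all genes, they were -1.184 for *Cyp8b1*, -0.9134 for *Cyp27a1*, -2.798 for *Cyp7b1*, -1.48 for *Slc27a5* and -0.8894 for *Baat*. The call of *Baat* between HFCFD8W+T10D and HFCFD12W+T10W was lost without any of 16 of the 30 livers, that of *Cyp8b1* without any of 11 and that of *Cyp7a1* without any of 4. Cre line, diet time, tamoxifen and experiment cannot be told apart in the differences from HFCFD2W. Between HFCFD8W+T10D and HFCFD12W+T10W, which share the Cre line, diet time, tamoxifen time and experiment cannot be told apart.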

How the results depend on the processing

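With a fold change over 2 as well, 2, 2 and 4 enzymes passed the test in the 3 experiments, against 3, 4 and 6, and with library totals alone 2 passed it in HFCFD8W+T10D. Scaling by library totals moved the median of all genes to 0.195 (HFCFD8W+T10D) or 0.384 (HFCFD12W+T10W), and changed the share of lower genes among those past the test from 48.5%, 40% and 46.5% to 42.3%, 15.9% and 12%. On that scale *Amacr* reversed, to 0.02847 for HFCFD8W+T10D and to 0.2821 for HFCFD12W+T10W. With the replicate block, 4, 4 and 7 enzymes passed the test, *Slc27a5* in HFCFD2W reversed (-0.02194), and 725 genes passed it in HFCFD2W against 1847. In HFCFD2W the block also dropped *Cebpa* fl/fl mouse 1 and knockout mouse 6, so the smaller sample and the block change together there. Leaving out knockout mouse 6 alone also reversed *Slc27a5* (-0.00436). The correlation of same-numbered mice was -0.334 to 0.196, and 4 or 5 pairs per experiment cannot show whether the replicate numbers pair mice. The joint fit gave 3, 5 and 8 enzymes, with 3517 genes past the test in HFCFD8W+T10D against 2052, and DESeq2 gave 4, 4 and 7 enzymes. The difference of the *Akr1d1* effect between HFCFD12W+T10W and HFCFD2W was 0.02538 with DESeq2 and 0.1211 with upper quartile normalization, and that of *Baat* between the control groups of HFCFD8W+T10D and HFCFD2W was 0.01892 with upper quartile normalization.

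Of 459 genotype effects under alternatives, 431 kept direction and call, 2 lost the call, 14 gained it and 12 reversed. For differences of effects these were 824, 35, 6 and 26 of 891, and for control groups 850, 28, 2 and 11 of 891. Of the results that reversed, 0 had passed the main test, and *Amacr* in HFCFD12W+T10W passed it only after reversing, with library totals (adjusted p = 0.0237). Leaving out single livers reversed *Amacr* (-0.01542 to 0.07124), *Baat* (-0.03594 to 0.05248), *Cyp27a1* (-0.08149 to 0.01362) and *Slc27a5* (-0.00436 to 0.09992) in HFCFD2W and *Slc27a5* in HFCFD8W+T10D (-0.4624 to 0.03348). It reversed the effect differences of *Akr1d1* (-0.1381 to 0.176, HFCFD12W+T10W and HFCFD2W), *Amacr* (-0.004365 to 0.1235, HFCFD12W+T10W and HFCFD8W+T10D) and *Cyp8b1* (-0.4197 to 0.09851, HFCFD8W+T10D and HFCFD2W). It also reversed control differences from HFCFD8W+T10D to HFCFD12W+T10W for *Akr1d1* (-0.01578 to 0.1199), *Baat* (-0.08714 to 0.01343) and *Cyp7b1* (-0.3807 to 0.1155), and from HFCFD2W to HFCFD8W+T10D for *Baat* (-0.1072 to 0.0128). The causes were not tested.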
